A study of Mus musculus with 18 samples.

Results

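Genes of the eosinophil lineage were followed through mouse bone marrow cells of 3 Fabp4 genotypes. The 9 genes, taken by symbol, were 4 eosinophil-associated ribonuclease genes (Ear1, Ear2, Ear6 and Ear10), 3 further granule protein genes (Prg2, Prg3 and Epx) and 2 receptor genes (Il5ra and Ccr3). All 9 had a row among the 22017 genes of the in vitro table, and 4 of them (Ear1, Ear2, Prg2 and Prg3) had a row among the 13195 genes of the marrow table. The other 5 were not analysed here in marrow. The groups were bone marrow cells from homozygous knockout (KO), heterozygous knockout (HET) and wild-type (WT) mice; Fabp4 encodes a lipid chaperone of adipocytes and macrophages. In the in vitro set, with 3 libraries per genotype, the cells were sorted from what the labels call vitro bone marrow. In the marrow set they were sorted straight from bone marrow, with 3 KO, 2 HET and 3 WT libraries, since HET replicate 2 was not used here. The labels name neither the sorted population, the culture, the strain, the age nor whether the knockout was limited to a cell type, and do not say whether libraries were made from separate mice.

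Eosinophils are white blood cells that mature in the bone marrow under interleukin-5 and carry large granules filled with cationic proteins. The granule core is built from major basic protein, encoded by Prg2, and the matrix around it holds eosinophil peroxidase and ribonucleases of the Ear family, which expanded by gene duplication in rodents. Transcripts of these proteins are made in large amounts by eosinophil progenitors and wane in mature cells, whereas the interleukin-5 receptor chain Il5ra and the eotaxin receptor Ccr3 mark commitment and maturation.

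The 4 Ear genes lie on mouse chromosome 14 and are near copies of each other, which bears on how their reads could be told apart. Ear1 lies at chr14:43818765-43819639, Ear10 at chr14:43922898-43923596, Ear2 at chr14:44102654-44103531 and Ear6 farther off at chr14:51853768-51854643 (GRCm38.p6, RefSeq). Ear1 and Ear2 transcripts were 96.1% identical, and Ear1 and Ear6 transcripts 88.7% identical. Of all 50-base windows of the Ear1 transcript, 57.4% also occurred in a transcript of another gene, and the share was 41.5% for Ear2 and 39.9% for Ear10 but 1.36% for Ear6. Values of Ear1, Ear2 and Ear10 are therefore uncertain as levels of single genes, because short fragments could be assigned to either copy. The likeness extends upstream: the 250 bases before the start were 97.6% identical between Ear1 and Ear2, 91.7% between Ear1 and Ear10 and 78.2% between Ear1 and Ear6. The last 100 bases before each start are shown because the 4 genes share an unbroken run of 30 bases there, in capitals, near the start (RefSeq, GRCm38.p6, each 5′ to 3′ on the strand of the gene). They lie at chr14:43819640-43819739 on the minus strand for Ear1, at chr14:44102554-44102653 on the plus strand for Ear2, at chr14:51853668-51853767 on the plus strand for Ear6 and at chr14:43923597-43923696 on the minus strand for Ear10.
Ear1: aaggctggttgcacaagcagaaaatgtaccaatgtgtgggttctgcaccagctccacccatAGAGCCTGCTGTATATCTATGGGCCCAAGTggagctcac
Ear2: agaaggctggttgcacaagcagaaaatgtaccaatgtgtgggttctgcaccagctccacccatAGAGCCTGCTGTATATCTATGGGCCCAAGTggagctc
Ear6: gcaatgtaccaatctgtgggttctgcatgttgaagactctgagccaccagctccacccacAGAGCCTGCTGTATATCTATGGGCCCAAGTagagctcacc
Ear10: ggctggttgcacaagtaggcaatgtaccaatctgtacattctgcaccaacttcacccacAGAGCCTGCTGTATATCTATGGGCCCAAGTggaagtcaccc

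Promoter sequences were matched for 8 of the 9 genes, all but Prg2, and 4 short motifs were searched on both strands of the 250 bases before each start. TTGCNNAA, a core of sites bound by C/EBP factors, occurred in Ear1, Ear2 and Ear10, in each as TTGCACAA, and in 9.55% of all 27025 mouse promoters of the same length. Ear6 held no such match. GATAA, the core of GATA factor sites, occurred in Prg3, Il5ra and Ccr3 and in 23% of all promoters. GAGGAA, a PU.1 core, occurred in Ccr3 and in 23.1% of all promoters, and TATAAA occurred in Epx and in 13% of all promoters. These matches describe letters in a window and not binding.

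The in vitro libraries were close to each other, with Spearman coefficients of 0.962 to 0.970 across genes and an estimated 30.6 to 36.9 M fragments, whereas the marrow libraries correlated at 0.427 to 0.621 and had an estimated 3.96 to 35.8 M fragments. Fabp4 itself was listed at 0 in all 3 KO libraries, at 0, 0.0676 and 0 FPKM in HET libraries and at 0, 0.0326 and 0.330 FPKM in WT libraries in vitro, too low to check the labels, and it was not analysed here in marrow. Every in vitro library held Xist as well as Y-linked transcripts, so each may hold cells of more than a single mouse, and p-values measure the spread between libraries, which may be technical. The Y-linked level moved with genotype: Ddx3y had 5.48 to 7.10 FPKM in KO, 8.91 to 11.7 in HET and 2.39 to 3.82 in WT libraries in vitro, without overlap, and Eif2s3y likewise did not overlap. In marrow, Y-linked transcripts were above 0 in all 3 KO libraries, in neither HET library and, as Ddx3y alone, in WT replicate 3. The part of this sex mix in the results was not tested. FPKM is scaled for transcript length, so levels can be set side by side between genes within a library. A gene was called at an adjusted p under 0.05 in limma, with Benjamini-Hochberg adjustment over all genes tested.

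In the in vitro set, the granule transcripts were lower in KO than in WT cells at all 6 genes that passed the filter on low values, a filter that asked for at least 1 FPKM in at least 3 libraries. For Prg2, Epx, Ear6, Prg3, Ear1 and Ear2 alike, each KO library lay below each WT library, while 9.09% of the 10877 genes tested had all KO libraries below all WT libraries. All 6 also had an unadjusted p under 0.05 in limma, against 7.48% of all genes tested in that direction. The genes were chosen with earlier results of these data known, and the 6 varied together across libraries (Pearson coefficients of 0.830 to 0.981). They are therefore not 6 separate results, and these shares are given as a description. Only Ear2 passed the threshold over all genes; its call and those of the other 5 depended on single libraries, as given below. The 6 genes had a median log2 change of -1.13, against 0.04 over all genes tested. Fewer eosinophil-lineage cells and less granule RNA per cell cannot be told apart in bulk libraries.

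Prg2, whose product forms the crystalline granule core and is toxic to helminths, was the most abundant of the 9 genes in every in vitro library. It had 1071, 1329 and 952 FPKM in KO cells, 2115, 1093 and 1343 FPKM in HET cells and 1748, 2273 and 2186 FPKM in WT cells. The KO and WT libraries did not overlap, and the HET libraries spread across both, with HET replicate 1 among the WT values. Mean levels were 1117 ± 193 FPKM in KO, 1517 ± 533 in HET and 2069 ± 281 in WT cells (SD, n = 3 each), which ranked Prg2 86th, 57th and 40th among the 22017 genes. The KO against WT log2 change was -0.89 ± 0.21 (SE), with a limma adjusted p of 0.0517, just outside the threshold.

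Prg3 encodes a paralog of major basic protein and lies beside Prg2 on chromosome 2, Prg2 at chr2:84980461-84983632 and Prg3 at chr2:84988196-84996559. Their transcripts were 59.2% identical, with no 50-base window of either found in any other gene. Prg3 had 37.9, 47.4 and 32.9 FPKM in KO cells, 61.7, 37.2 and 39.5 FPKM in HET cells and 52.8, 66.9 and 63.4 FPKM in WT cells. All KO values were under all WT values, and HET replicates 2 and 3 lay among the KO values. The KO against WT log2 change of Prg3 was -0.63 ± 0.18 (SE), the smallest of the 6 genes, with a limma adjusted p of 0.0901.

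The ratio of the 2 neighbours varied little within a genotype. Prg2 was 28.0 to 29.0 times Prg3 in KO cells, 29.4 to 34.3 times in HET cells and 33.1 to 34.5 times in WT cells. The KO and WT ranges of this ratio did not overlap, so Prg2 was further below its WT level than Prg3 was. An exact two-sided permutation test of 3 against 3 libraries cannot give a p below 0.1, so this difference was left as a description.

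Epx encodes eosinophil peroxidase, the heme enzyme of the granule matrix that makes hypobromous acid from bromide. It had 221, 234 and 195 FPKM in KO cells, 509, 254 and 289 FPKM in HET cells and 352, 459 and 400.1 FPKM in WT cells. Every KO library was under every HET and every WT library. Means were 216 ± 19.8 FPKM in KO, 351 ± 138 in HET and 404 ± 53.2 in WT cells (SD, n = 3 each), and the KO against WT log2 change of -0.89 ± 0.21 (SE) had a limma adjusted p of 0.0512. The ratio of Prg2 to Epx, 4.86 to 5.68 in KO cells and 4.96 to 5.47 in WT cells, overlapped between these genotypes, and it was 4.15 to 4.64 in HET cells, below every KO and WT library. The myeloid peroxidase gene Mpo, the closest relative of Epx and a gene of neutrophil and monocyte progenitors, averaged 1495 FPKM in KO and 1678 FPKM in WT cells (log2 change -0.22, limma adjusted p 0.510). Epx amounted to 0.113 to 0.180 of the Mpo level in KO cells, 0.157 to 0.299 in HET cells and 0.204 to 0.277 in WT cells.

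**Figure D1:**
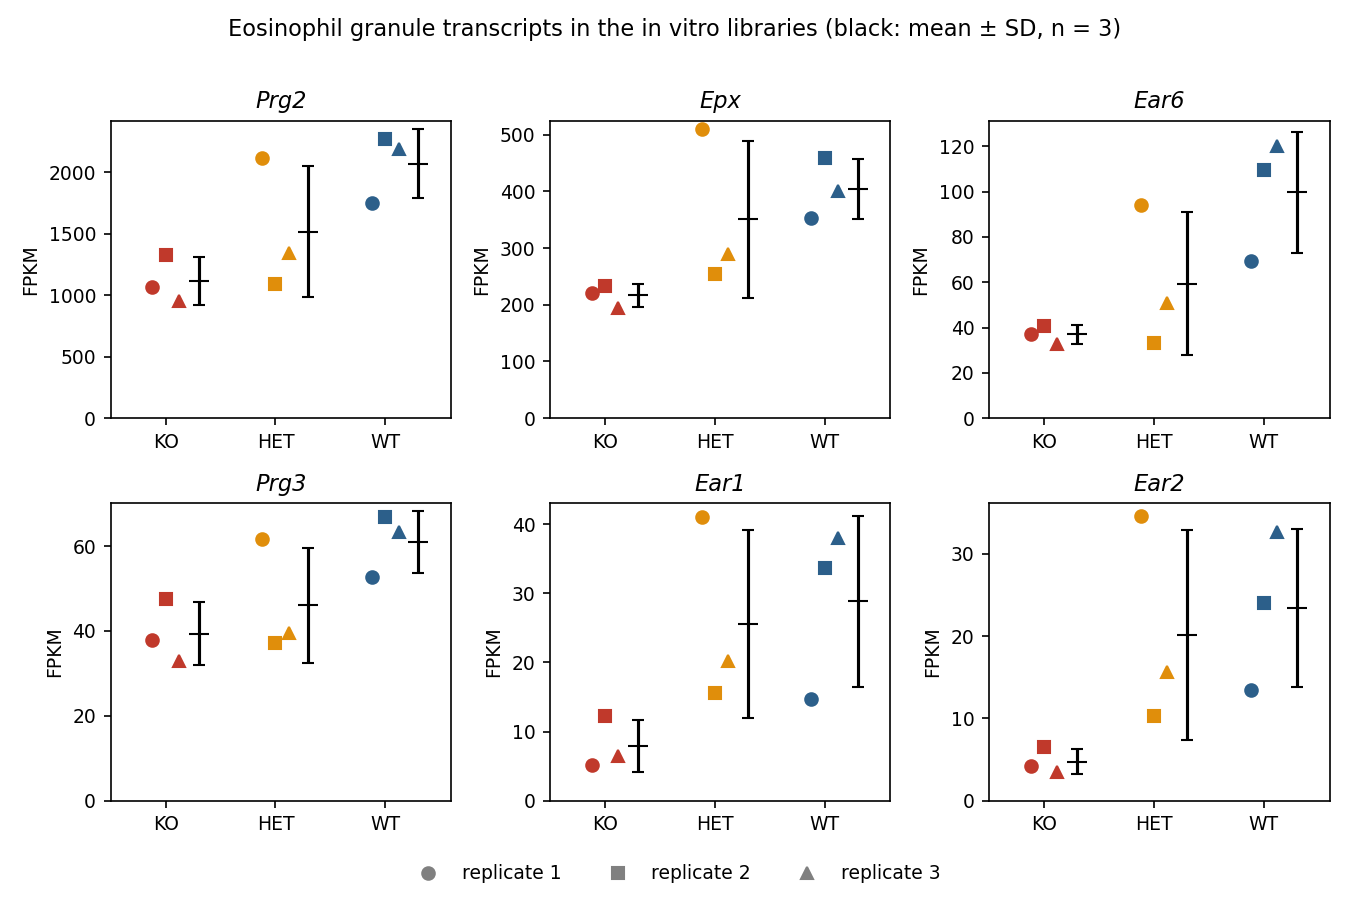
FPKM (vertical axes, each starting at 0) of the 6 expressed granule genes in each in vitro library by genotype, with symbols for the replicate number and black bars for mean ± SD (n = 3). The KO points lie below the WT points in each panel, HET replicate 1 is the highest HET point and WT replicate 1 the lowest WT point in all 6.

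The ribonuclease genes showed the largest differences. Ear2 encodes a secreted eosinophil ribonuclease and, in mice, is also transcribed in a subset of monocytes. It had 4.24, 6.49 and 3.53 FPKM in KO cells, 34.6, 10.2 and 15.6 FPKM in HET cells and 13.5, 24.0 and 32.7 FPKM in WT cells. The highest KO value was below the lowest HET and the lowest WT value. Means were 4.75 ± 1.54 FPKM in KO, 20.2 ± 12.8 in HET and 23.4 ± 9.60 in WT cells (SD, n = 3 each). Ear2 fell by 2.04 on the log2 scale in KO cells relative to WT (SE 0.42, limma adjusted p 0.0336), and it ranked 1 among the 10877 genes tested by size of decrease. It was the 1 called gene of the 6, against 2.99% of all genes tested called in this comparison and 1.63% called lower.

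Ear1, the near copy of Ear2, had 5.22, 12.2 and 6.39 FPKM in KO cells, 41.0, 15.5 and 20.2 FPKM in HET cells and 14.7, 33.7 and 38.0 FPKM in WT cells. KO replicate 2, the highest KO library, came within a few FPKM of WT replicate 1, the lowest WT library, without overlap. Means were 7.94 ± 3.74 FPKM in KO, 25.6 ± 13.6 in HET and 28.8 ± 12.4 in WT cells (SD, n = 3 each), and the KO against WT log2 change of -1.71 ± 0.43 (SE) had a limma adjusted p of 0.0654. Ear1 ranked 3 among all genes tested by size of decrease. Its level was above that of Ear2 in 9 of 9 libraries, at 1.23 to 1.88 times in KO cells, 1.18 to 1.51 times in HET cells and 1.09 to 1.40 times in WT cells, and these ranges overlapped. How the windows they share were assigned to Ear1 or Ear2 cannot be told from the deposited values.

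Ear6, another secreted ribonuclease of the family, is nearly free of shared windows and was the most abundant Ear gene in 9 of 9 libraries. It had 37.2, 40.9 and 32.8 FPKM in KO cells, 94.2, 33.0 and 50.6 FPKM in HET cells and 69.4, 109.7 and 120 FPKM in WT cells. The KO values were tight and all below the WT values, and HET replicate 2 lay within the KO range. Means were 36.9 ± 4.05 FPKM in KO, 59.3 ± 31.5 in HET and 99.7 ± 26.7 in WT cells (SD, n = 3 each). The KO against WT log2 change of Ear6 was -1.38 ± 0.33 (SE), rank 5 among all genes tested by size of decrease, with a limma adjusted p of 0.0555. Prg2 was 28.8 to 32.5 times Ear6 in KO cells and 18.2 to 25.2 times in WT cells, without overlap, so Ear6 was further below its WT level than Prg2 was.

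As a share of the WT mean, the KO libraries held 15.1 to 27.7% for Ear2, 18.1 to 42.3% for Ear1 and 32.9 to 41.0% for Ear6. The corresponding shares were 46.0 to 64.2% for Prg2, 48.3 to 57.9% for Epx and 53.8 to 77.8% for Prg3. By ratio of means, the order from the lowest KO share upward was Ear2 at 0.203, Ear1 at 0.275, Ear6 at 0.371, Epx at 0.536, Prg2 at 0.540 and Prg3 at 0.646. The 3 ribonuclease genes thus had the lowest shares and the 3 other granule genes the highest. The per-library shares overlapped between Ear2 and Ear1, between Ear1 and Ear6 and between each pair of Prg2, Epx and Prg3.

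The 9 genes together amounted to 1376, 1670 and 1223 summed FPKM in KO libraries, 2856, 1444 and 1758 in HET libraries and 2251, 2967 and 2841 in WT libraries. That was 0.248 to 0.320% of all FPKM in KO, 0.294 to 0.595% in HET and 0.461 to 0.590% in WT libraries, with Prg2 and Epx making up most of it. HET replicate 1 was thus at the WT level and HET replicate 2 in the KO range.

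The receptor genes and Ear10 were under 1 FPKM in every in vitro library. Il5ra, the interleukin-5 binding chain, had 0.0154, 0.0323 and 0.00761 FPKM in KO cells, 0.0595, 0.0227 and 0.0169 FPKM in HET cells and 0.0140, 0.0802 and 0 FPKM in WT cells, with overlap throughout, which came to no more than an estimated 10 fragments in a library. Ccr3, the receptor for eotaxins that draws eosinophils into tissue, had 0.213, 0.0625 and 0.286 FPKM in KO cells, 0.214, 0.427 and 0.374 FPKM in HET cells and 0.116, 0.242 and 0.572 FPKM in WT cells, an estimated 6.5 to 59 fragments per library. Ear10 was listed at 0, 0 and 0.0421 FPKM in KO cells, at 0 in all 3 HET libraries and at 0, 0.0403 and 0.272 FPKM in WT cells. All 3 genes failed the filter, and their genotypes overlapped in each comparison. Exact two-sided permutation tests of KO against WT gave p of 0.9 for Il5ra, 0.5 for Ccr3 and 0.7 for Ear10, where 0.1 is the smallest p that 3 against 3 libraries allow. The test could therefore not pass 0.05 at any depth. Without the filter, limma gave KO against WT log2 changes of -0.018 for Il5ra, -0.13 for Ccr3 and -0.11 for Ear10, with adjusted p of 0.853, 0.703 and 0.534. Il5ra and Ccr3 were thus under 1 FPKM in cells where Prg2 was among the 100 most abundant genes of each genotype. Ccr3 was low but above 0 in every in vitro library.

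In HET against WT cells in vitro, none of the 6 tested genes was called and none had groups without overlap. Over all 10877 genes tested, 3.68% were called and 0.735% called lower, and 11.9% had all HET libraries below all WT libraries. At an unadjusted p under 0.05, Ear6, Prg2 and Prg3 would have been lower, against 8.94% of all genes tested. The log2 changes were -0.83 ± 0.33 for Ear6 (limma adjusted p 0.166), -0.49 ± 0.21 for Prg2 (0.196) and -0.43 ± 0.18 for Prg3 (0.186). Those of Ear2, Epx and Ear1 were -0.29, -0.26 and -0.18, with limma adjusted p of 0.712, 0.489 and 0.837. Sign and size for the HET cells depended on which libraries were read: HET replicate 1 was the highest HET library for all 6 genes and the highest of all 9 libraries for Ear1, Ear2 and Epx. Ear10, Il5ra and Ccr3 gave exact permutation p of 0.4, 0.9 and 1, where 0.1 is the smallest possible.

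In KO against HET cells, none of the 6 genes was called, against 1.99% of all genes tested called and 1.39% called lower. Ear1, Ear2 and Epx had all KO libraries below all HET libraries, 3 of 6 against 11.1% of all genes tested. Log2 changes were -1.74 ± 0.42 for Ear2 (limma adjusted p 0.0730), -1.53 ± 0.43 for Ear1 (0.126) and -0.63 ± 0.21 for Epx (0.203). Ear6, Prg2 and Prg3 had -0.54, -0.40 and -0.20, with limma adjusted p of 0.563, 0.492 and 0.750 and overlapping groups. KO against WT shares its KO libraries with this comparison and its WT libraries with the one before, so the 3 sets of values are not independent.

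**Figure D2:**
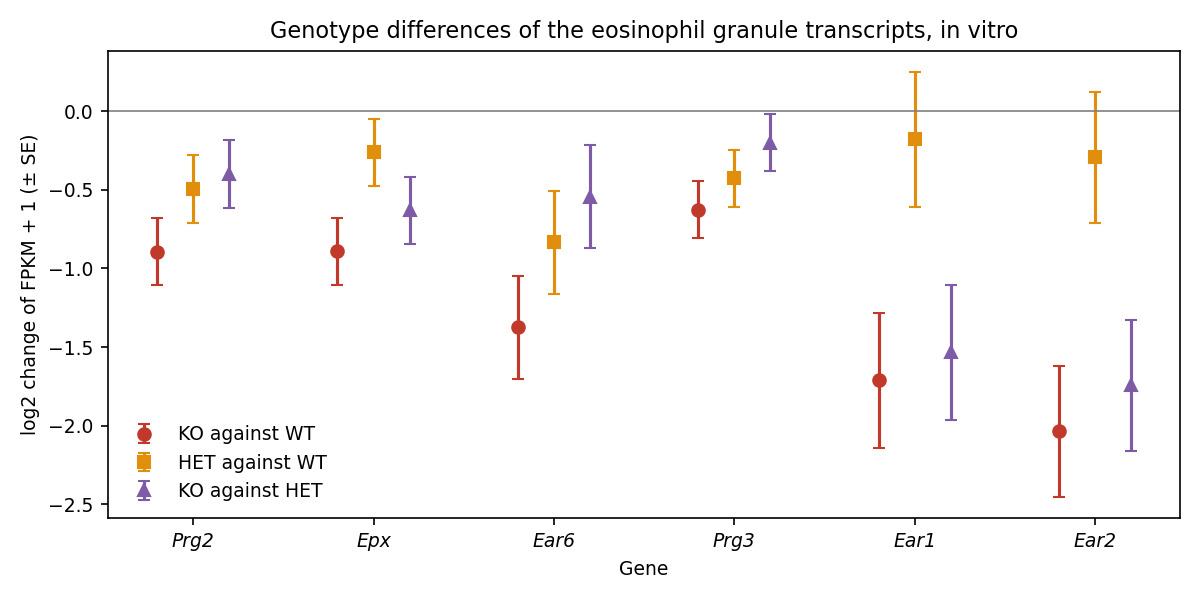
Log2 change of FPKM + 1 with its standard error (vertical axis) for the 6 tested granule genes (horizontal axis) in the 3 in vitro comparisons. All 18 estimates lie below 0, and the change of Ear2 in KO against WT (-2.04) is the largest. In HET against WT, Ear1 (-0.18), Epx (-0.26) and Ear2 (-0.29) lie nearest to 0.

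The KO against WT calls in vitro moved with single libraries, HET libraries included, since all genotypes shared an estimate of spread. All 6 genes were called when HET replicate 1 was left out, with the same log2 changes and limma adjusted p of 0.00331 for Epx, 0.00784 for Ear2, 0.00954 for Ear6, 0.0117 for Prg2, 0.0311 for Ear1 and 0.0319 for Prg3. Without WT replicate 1, 5 of 6 were called, all but Prg3, and without HET replicate 2, 4 of 6 were called. Without KO replicate 1, KO replicate 3, WT replicate 2 or WT replicate 3, none of the 6 was called, and without KO replicate 2 only Prg3 was, at a limma adjusted p of 0.0497. The adjusted p of Ear2 ranged from 0.00784 to 0.193 over all alternatives, and its log2 change from -2.37 to -1.76. With only KO and WT libraries in the fit, Ear2, Ear6, Epx and Prg2 were called. The direction was lower in KO for all 6 genes under each alternative.

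**Figure D3:**
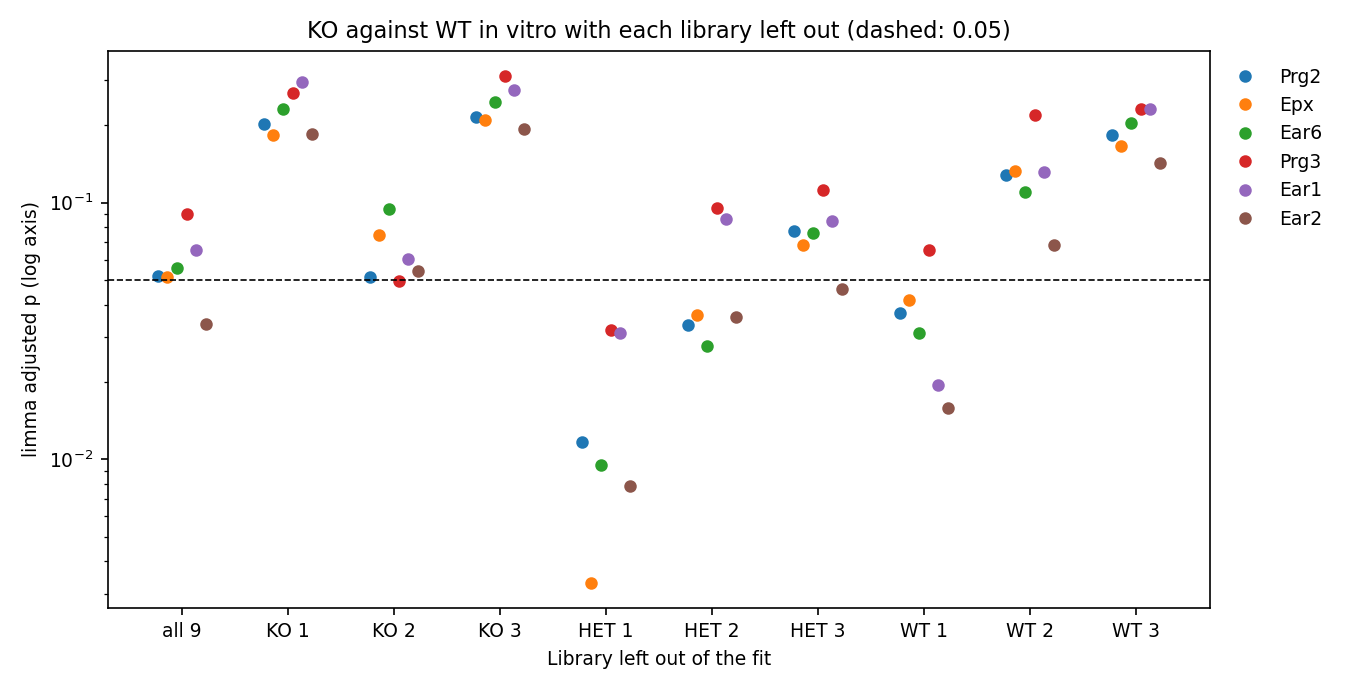
Limma adjusted p of KO against WT in vitro (log axis) for the 6 granule genes with all 9 libraries and with each library left out in turn, the dashed line marking 0.05. All 6 genes lie under the line without HET replicate 1, and none does without KO replicate 1, KO replicate 3, WT replicate 2 or WT replicate 3.

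The 6 genes varied together across the 9 in vitro libraries, which include all 3 genotypes. Pearson coefficients of log2(FPKM + 1) between pairs of them ran from 0.830 for Ear1 and Prg3 to 0.981 for Prg2 and Prg3. These describe 9 libraries that share genotype differences and, for Ear1 and Ear2 at 0.979, shared sequence. Prg2 and Ear6 reached 0.981 with no 50-base window in Prg2 found in another gene. Of all genes tested, the most like Ear1 after Ear2 were Them6 and Gcat, both at 0.952, and the most like Ear2 after Ear1 were Mvk at 0.970 and Gcat at 0.969. Stip1 at 0.952 and Tsn at 0.948 followed Prg2 for Ear6, Psmd13 at 0.970 followed Prg3 and Ear6 for Prg2, and Psmd13 at 0.956 and Agpat1 at 0.950 followed Prg2 for Prg3. The 3 genes most like Epx were not among the 9: Stip1 at 0.962, Psmd13 at 0.961 and Ctsh at 0.959.

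In 4 lists of other lineage genes, none of the genes tested was called in KO against WT cells in vitro, where 2.99% of all genes tested were called and 5 of the 6 granule genes were not. None of 11 tested genes of other eosinophil functions was called, with a median log2 change of 0.05; Siglecf, the eosinophil surface lectin, averaged 18.0 FPKM in KO as well as in WT cells (log2 change -0.003, limma adjusted p 0.990). None of 16 tested genes of interleukin-5 receptor signalling was called (median 0.02), among them Csf2rb, the beta chain that Il5ra pairs with, at 98.7 FPKM in KO and 106 FPKM in WT cells. None of 13 tested transcription factor genes was called (median 0.11). Gata1, which eosinophil development requires in mice, averaged 45.0 FPKM in KO and 42.8 FPKM in WT cells, and Cebpe, required for the granules in mice, 94.6 FPKM in KO and 85.2 FPKM in WT cells. None of 9 tested genes of granule assembly and release was called either (median 0.00). No gene of these 4 lists had all KO libraries below all WT libraries, and 2 of 11, 4 of 16, 1 of 13 and 2 of 9 had all KO libraries above, against 13.8% of all genes tested. Among them were Cebpa with a log2 change of 0.52 (limma adjusted p 0.0598), Itgb7 with 0.31 (0.0576) and Csf2ra with 0.36 (0.0815), named after their values were seen. Other genes of these lists were lower in KO cells with overlapping groups. Cish of the signalling list had -0.56 (limma adjusted p 0.128) and the transcription factor gene Id2 -0.36 (0.331), also named after their values were seen. Medians of 0.00 to 0.11 in these lists stand near the 0.04 of all genes tested, in contrast to -1.13 for the 6 granule genes. No test was run for this contrast, and the granule genes and the lists were chosen with earlier results of these data known.

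Of the other ribonuclease A family genes, 22 were looked for, 9 had a row and 4 passed the filter. No row was found for Ear3, Ear4, Ear5, Ear7, Ear11, Ear12, Ear14, Rnase2a or Rnase2b, which were not analysed here. Rnase12 averaged 46.2 FPKM in KO and 46.7 FPKM in WT cells, and Rnase6 12.7 FPKM in KO and 9.30 FPKM in WT cells. Rnase4 averaged 3.03 FPKM in KO and 2.21 FPKM in WT cells, and Ang, the angiogenin gene, 1.37 FPKM in KO and 1.44 FPKM in WT cells. None of these 4 was called, and their limma adjusted p ran from 0.162 for Rnase6 to 0.978 for Rnase12.

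In HET cells Csf2rb, the partner chain of Il5ra, and some related receptor genes were higher than in WT cells while the granule genes were not called; 2.94% of all genes tested were called higher in this comparison. Csf2rb rose by 0.56 on the log2 scale (157 FPKM in HET and 106 FPKM in WT cells, limma adjusted p 0.0411) and Csf2ra, the GM-CSF receptor alpha chain, by 0.60 (adjusted p 0.00912), 2 of 16 tested genes of that list. Cebpa, a myeloid transcription factor, rose by 0.58 (adjusted p 0.0391), 1 of 13. Ccr1 and Ccr2, chemokine receptors of the same gene cluster as Ccr3, rose by 0.83 and 1.40 in HET cells (adjusted p 0.00261 and 2.44e-05). In KO cells Ccr2 was higher than in WT cells by 1.03 (adjusted p 0.000439), where 1.36% of all genes tested were called higher. In KO against HET cells, Csf2rb fell by 0.68 and Ccr1 by 0.63 on the log2 scale (adjusted p 0.0212 and 0.0158).

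Markers of other marrow cells were read beside these results, and their part in them was not tested. The 12 mast cell and basophil genes with a row, a lineage that shares progenitors with eosinophils, summed to 1653 to 2602 FPKM in KO, 2574 to 2756 in HET and 1303 to 3471 in WT libraries. None of the 11 tested was called in any in vitro comparison. The sum in WT replicate 1 was the lowest of all 9, and its granule transcripts were the lowest among WT libraries. The KO libraries showed the reverse. KO replicate 2 had their lowest mast cell and basophil sum, 1653 FPKM, and their highest sum of the 9 eosinophil genes, 1670 FPKM. Neutrophil primary granule genes (5 of 5 tested, none called in any in vitro comparison) summed to 4262 to 7511 FPKM in KO, 5454 to 5786 in HET and 5658 to 6182 in WT libraries. Secondary granule genes summed to 450 to 697 FPKM in KO, 622 to 1093 in HET and 206 to 548 in WT libraries. None of their 7 tested genes was called in KO against WT, but 4 were higher in HET against WT, Mmp8 by 2.34, Ltf by 2.05, Cd177 by 1.28 and Lcn2 by 0.70 on the log2 scale. In KO against HET, Mmp8, Ltf and Cd177 fell by 2.31, 1.81 and 1.22.

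The 12 of 13 monocyte and macrophage genes with a row, read because Ear2 is also a monocyte transcript, summed to 272 to 470 FPKM in KO, 377 to 423 in HET and 251 to 376 in WT libraries. Of the markers in this list, Cd68 had 26.4 to 45.4 FPKM, Ly6c2 187 to 388 FPKM and Csf1r 1.99 to 8.27 FPKM over the 9 libraries. Cx3cr1, Treml4, Mrc1 and C1qb were under 1 FPKM in every library. They had 0.199 to 0.421, 0.0759 to 0.630, 0 to 0.0756 and 0 to 0.115 FPKM, in that order. C1qa was listed at 0 in 8 of the 9 libraries. Of 7 tested, Ccr2 and Nr4a1 were higher in KO against WT, Nr4a1 by 1.17 (limma adjusted p 0.000813), opposite in direction to Ear2. In HET against WT, 5 of 7 were higher, among them Ctss by 1.76, Ccr2 by 1.40 and Csf1r by 1.37. In KO against HET, Ctss and Csf1r fell by 1.90 and 1.27 and Nr4a1 rose by 0.67. Of 7 tested erythroid genes, none was called in KO against WT, with a summed 371 to 520 FPKM in KO, 378 to 452 in HET and 421 to 525 in WT libraries; Hba-a1 fell by 0.59 in HET against WT (limma adjusted p 0.00988).

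**Figure D4:**
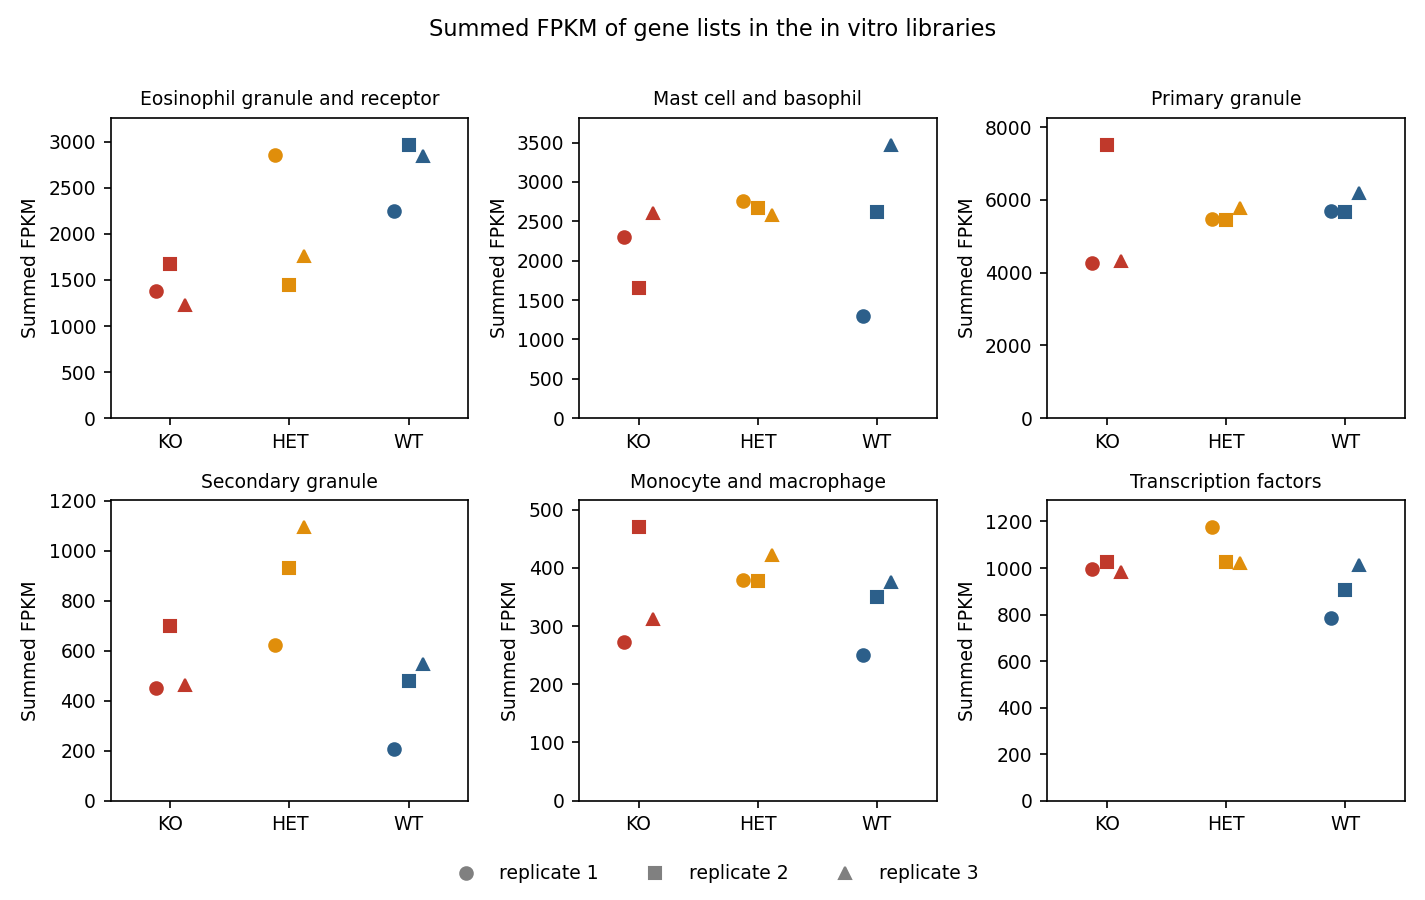
Summed FPKM (vertical axes, each starting at 0) of the 9 eosinophil granule and receptor genes and of 5 other gene lists in each in vitro library by genotype, with symbols for the replicate number. The eosinophil sums of KO libraries (1223 to 1670) lie below those of WT libraries (2251 to 2967). The sums of the 5 other lists shown overlap between KO and WT. Separation was not particular to the eosinophil genes. A list not shown, of Ccr3 ligands and related receptors, summed to 33.5 to 40.8 in KO and 22.3 to 23.4 in WT libraries.

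In the marrow set each of the 4 transcripts was listed at 0 in 4 to 7 of the 8 libraries, and no genotype difference of any of them passed the test. Prg2 had 0, 27.7 and 0.0297 FPKM in KO cells, 0 in both HET libraries and 0, 177 and 39.9 FPKM in WT cells. Prg3 had 0, 0 and 4.46 FPKM in KO cells, 0 in both HET libraries and 57.2, 80.0 and 0 FPKM in WT cells. The groups overlapped for both genes, where 8.14% of the 7246 genes tested had all KO libraries below all WT libraries, and WT replicate 2 was the only library of the 8 in which both exceeded 1 FPKM. The neighbours Prg2 and Prg3, which kept a nearly fixed ratio in vitro, were thus listed apart in marrow: WT replicate 1 held Prg3 at 57.2 FPKM with Prg2 at 0, and WT replicate 3 held Prg2 at 39.9 FPKM with Prg3 at 0.

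Prg2 and Prg3 were the only 2 of the 4 genes to pass the filter in marrow. Their KO against WT log2 changes were -2.65 ± 1.998 and -3.25 ± 1.70 (SE), with limma adjusted p of 0.995 and 0.993. No gene of 7246 was called by limma in that comparison (0%), while 5.11% had an unadjusted p under 0.05, and neither gene was among them. In HET against WT, the log2 changes were -4.28 ± 2.23 for Prg2 and -4.07 ± 1.90 for Prg3 (limma adjusted p 0.464 and 0.412), where 0.262% of genes were called and the median of all genes tested was itself -0.99. The HET libraries had an estimated 3.96 and 11.7 M fragments, fewer than any KO or WT library. In KO against HET, the changes of Prg2 and Prg3 were 1.63 and 0.82 (limma adjusted p 0.756 and 0.875), against 0.166% of genes called and a median of 0.83 over all genes tested.

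Ear2 was listed at 0 in 7 of the 8 marrow libraries and at 29.4 FPKM in KO replicate 2, an estimated 720 fragments. Ear1 was listed at 0.0413 FPKM in that same library, about 1 fragment, at 0.0644 FPKM in WT replicate 1, also about 1 fragment, and at 0 elsewhere. Ear2 without Ear1 in that library stands against the in vitro set, where Ear1 was above Ear2 in 9 of 9 libraries. Exact two-sided permutation tests of KO against WT in marrow gave a p of 1 for Ear1 and for Ear2, where 0.1 is the smallest possible.

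**Figure D5:**
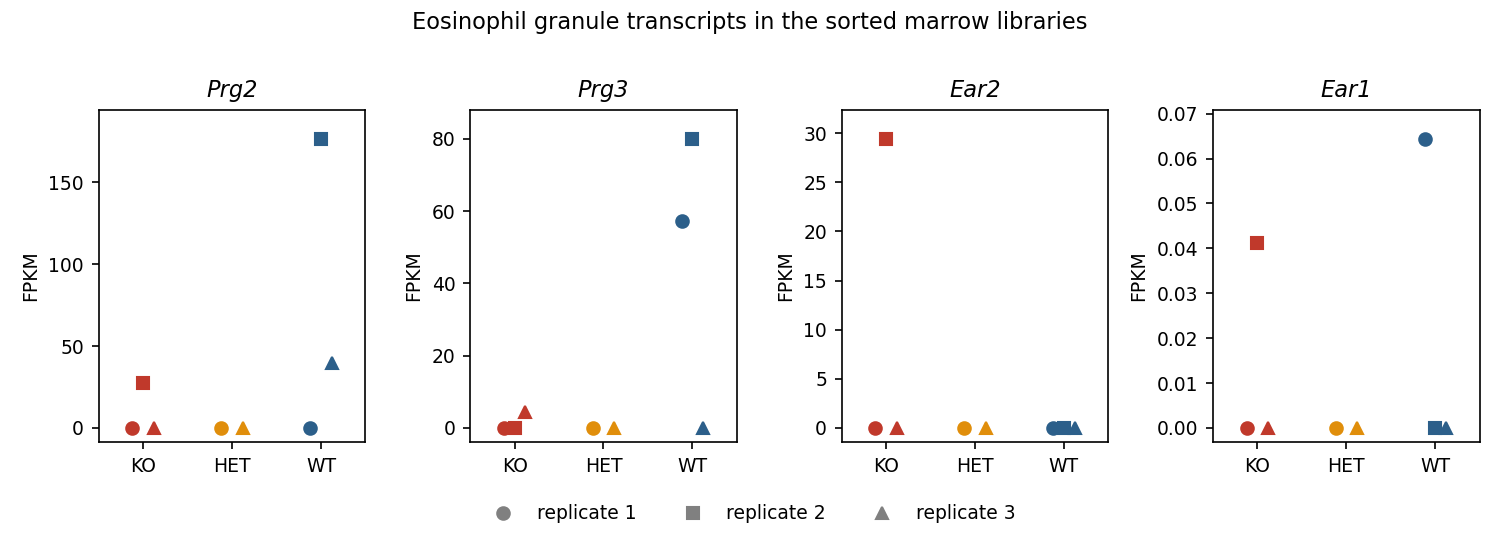
FPKM (vertical axes, a separate linear scale in each panel) of Prg2, Prg3, Ear2 and Ear1 in each marrow library by genotype, with symbols for the replicate number. In each panel 4 to 7 of the 8 libraries are listed at 0, Prg2 and Prg3 are highest in WT replicate 2 (177 and 80.0), and Ear2 is above 0 only in KO replicate 2 (29.4).

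Secondary granule genes of neutrophils differed in summed level between the marrow genotypes: their sums were 35896 to 54101 FPKM in KO, 23736 to 29067 in HET and 302 to 10336 in WT libraries, without overlap, and Camp and Ngp were above 0 in all 8 libraries. None of the 7 tested was called in KO against WT, with a median log2 change of 4.27, and their part in the values of Prg2 and Prg3 was not tested. The sums of the transcription factor list did not overlap in marrow either, at 2174 to 2264 FPKM in KO, 2318 to 2359 in HET and 1391 to 2118 in WT libraries. How often sums of other genes separate in groups this small was not tested. Of the mast cell and basophil genes, Mcpt8 was listed at 0 or under 1 FPKM in 4 of the 8 libraries, and Cpa3 likewise in 5. Hdc was above 0 only in KO replicate 3 and WT replicate 1. Fcer1g of the same list, by contrast, had 2130 to 4036 FPKM over all 8 libraries. Siglecf was listed at 0 in 4 of the 8 marrow libraries, and no gene of the lists of eosinophil functions, transcription factors or receptor signalling was called in any marrow comparison.

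Whether KO against WT changed unlike in the in vitro and marrow sets was tested with limma in 1 fit of 6915 genes, of which 0.738% were called. Relative to marrow, the in vitro change was higher by 1.75 ± 2.08 for Prg2 and by 2.62 ± 1.77 for Prg3 on the log2 scale (SE, limma adjusted p 0.920 and 0.807). With standard errors of this size, neither a like nor an unlike KO against WT change in the 2 sets was shown. The tables may have been scaled separately.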

How the data were processed

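Bulk RNA of sorted mouse bone marrow cells was read from deposited tables that the authors deposited under the name of FPKM, with 9 in vitro and 8 marrow libraries. Per the labels' protocols, RNA came from TRIzol extraction and libraries from a VAHTS Universal kit. The submitters' processing notes name the genome build mm10. For the aligner, counter, annotation and strand, the entry is: not given in the sources used here. FPKM holds no counts, and abundant transcripts lower the values of others. An exact 0 can be a failed estimate.

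Samples were grouped by the genotype and set in their labels. Tests used limma 3.58.1 in R 4.3.3 (statmod 1.5.0, version 1.17.8 of data.table) on log2(FPKM + 1) with trend and robust moderation, over genes reaching 1 FPKM in 3 or more libraries (10877 in vitro, 7246 in marrow). The 3 genotypes of a set shared a fit without a block, p-values were adjusted by Benjamini-Hochberg over all genes tested, and the threshold was 0.05. This scale understates the change of low genes. Genes that failed the filter were compared by exact two-sided permutation of mean FPKM. The fit was tested on simulated data.

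Depth was estimated from the steps of low FPKM values of single-exon genes with RefSeq lengths, and entered no test. At the depth taken, 78.7 to 92% of values lay within 0.1 of whole fragments. The depth was chosen to bring these same values near whole fragments, so that share is no separate check of it. Promoters and positions came from RefSeq (GRCm38.p6) and transcripts from GENCODE. Python 3.11.15 with pandas 2.3.3, numpy 2.4.6, Biopython 1.88 and matplotlib 3.10.9 served for sequences and figures. The 9 genes and the 12 other lists were chosen with earlier results of these data known. Genes named were the 9, called genes of each list (at most 4 per list and comparison, by smallest p; a gene that met this rule is not reported here), the ribonuclease A family, and the 3 genes most correlated with each tested member. Genes of the lists given only for their level, such as Siglecf, Gata1, Cebpe and Mpo, were picked after their values were seen. Alternatives were another pseudocount, filter, scaling or sample set, a replicate block, and leaving out each library.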

Additional observations from a re-analysis of the deposited data

How the results depend on the processing

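Of the 6 granule genes, 1 was called in KO against WT in vitro. With no filter 0 were called, with a filter at 5 FPKM 3, with median-ratio size factors 4, with only the compared groups 4, and with a library left out 0 to 6. Leaving out a library gave 0 to 1 called members in HET against WT (Ear6, adjusted p 0.0370 without HET replicate 1), 0 to 2 in KO against HET (Ear1 and Ear2 without WT replicate 1) and 0 to 1 in the difference between the sets (Prg3 at 4.66 without marrow WT replicate 3). Over all genes, KO against WT in vitro gave 325 calls, 152 with no filter, 176 with only the compared groups and 66 to 475 with a library left out. HET against WT in vitro gave 400, 250 with no filter and 84 to 628 with a library left out. KO against HET in vitro gave 216, 136 with the filter at 5 FPKM and 73 to 344 with a library left out. In marrow, KO against WT gave 0 calls, 2 with quantile normalization and 0 to 4 with a library left out. HET against WT in marrow gave 19, 35 with a pseudocount of 0.1, 12 with quantile normalization, 0 with only the compared groups and 0 to 323 with a library left out. KO against HET in marrow gave 12, 31 with a pseudocount of 0.1, 6 with no filter, 7 with quantile normalization, 0 with only the compared groups and 0 to 330 with a library left out. With the replicate number as a block there were 172 calls in KO against WT and 234 in HET against WT in vitro, and 0 in HET against WT and in KO against HET in marrow. The same 1 granule gene, Ear2, was called with the block. Deviations from the genotype mean correlated at -0.303 to 0.181 in vitro and -0.019 to 0.032 in marrow between same-numbered libraries. Between libraries of different number they correlated at -0.331 to 0.374 in vitro and -0.037 to 0.021 in marrow. Centring on such small groups constrains these coefficients. The numbers were not taken as pairs.

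The sign of a change turned for Prg3 in KO against HET (-0.34 to 0.024 with a library left out in vitro, positive without HET replicate 1, and -0.26 with quantile normalization in marrow), for Ear1 in HET against WT in vitro (-0.59 to 0.11, positive at 0.11 without HET replicate 2 and 0.068 without WT replicate 3) and for Ear2 in HET against WT in vitro (-0.75 to 0.078, positive without HET replicate 2). Of all calls in KO against WT in vitro, 45.5% were higher, 35.1% with quantile normalization and 35.2% with median-ratio size factors; in HET against WT, 80% and 60.2% with quantile normalization. The cause was not tested. The number of libraries limits precision, and marrow values near 0 allow no comparison.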
